A study of Mus musculus with 6 samples.

Results

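The genes described here are Mpo, Elane, Prtn3 and Ctsg, which encode myeloperoxidase, neutrophil elastase, proteinase 3 and cathepsin G, the best known contents of azurophil granules. They were found by their symbols in the deposited expression table, where all 4 were among the 27198 genes listed and all 4 passed the filter on low counts. Elane, Prtn3 and Ctsg encode serine proteases, whereas the product of Mpo is a peroxidase and not a protease. They had been chosen with the difference between the groups in view, so their levels in the groups are described and not tested. The cells were hematopoietic stem cells (HSCs), from which all blood lineages descend, sorted from bone marrow as Lineage- Sca-1+ c-Kit+ cells without CD34 or CD135 on their surface, and their amplified cDNA was sequenced. Control (Ctrl) mice were given solvent, and l-FA mice were given ferulic acid (FA), a phenolic acid of plants, by intraperitoneal injection of 50 mg/kg daily over 30 days. Both groups were non-irradiated wild-type C57BL/6 males aged 8 to 10 weeks, and neither carried a transgene or a deletion. Each group held 3 libraries, with 19287735 to 20380610 counts per library, and the sources used here do not say how many mice went into one. The comparison asks how long-term FA changed the transcripts of HSCs in mice at homeostasis.

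Azurophil granules, also called primary granules, are the first granules that a developing neutrophil makes, at the promyelocyte stage. Myeloperoxidase turns hydrogen peroxide and chloride into hypochlorous acid, and the serine proteases degrade microbial and matrix proteins. The proteases are made as inactive precursors that cathepsin C trims, and cytosolic and secreted inhibitors restrain them once they leave the granule. RNA of these genes is known to peak in granulocyte-monocyte progenitors and promyelocytes and to fade as neutrophils mature, when the contents of specific and gelatinase granules take over.

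In the deposited table, whose coordinates follow GRCm39 according to the submitters' processing notes, Mpo (ENSMUSG00000009350) lies on chromosome 11 from 87684407 to 87695239. Elane (ENSMUSG00000020125) lies on chromosome 10 from 79722081 to 79724049, and Prtn3 (ENSMUSG00000057729) lies beside it from 79710310 to 79719008, so that 3073 bp separate the end of Prtn3 from the start of Elane. Ctsg (ENSMUSG00000040314) lies on chromosome 14 from 56337338 to 56340031. All 4 are listed as protein-coding. The span of Mpo contains the listed gene Gm11505, and that of Prtn3 meets the end of Plppr3, and since the library kit does not mark strand, reads of overlapping genes cannot be told apart. Elane and Ctsg overlap no listed gene.

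The bases before each transcription start are shown because the transcription factors described further on are known to act there, and because the 4 genes were all lower in l-FA. Each line gives the 250 bases upstream of the start in the direction of the gene, from RefSeq on GRCm38.p6, with GGAAGT, a core recognized by ETS factors such as PU.1, in capitals. The windows are chr11:87793534-87793783 (plus strand) for Mpo, chr10:79886062-79886311 (plus strand) for Elane, chr10:79879417-79879666 (plus strand) for Prtn3 and chr14:56102575-56102824 (minus strand) for Ctsg.
Mpo: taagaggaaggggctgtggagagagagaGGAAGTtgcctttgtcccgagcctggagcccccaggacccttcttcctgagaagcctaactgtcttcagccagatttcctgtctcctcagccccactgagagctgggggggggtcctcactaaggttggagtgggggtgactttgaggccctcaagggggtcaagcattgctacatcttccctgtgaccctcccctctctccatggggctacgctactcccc
Elane: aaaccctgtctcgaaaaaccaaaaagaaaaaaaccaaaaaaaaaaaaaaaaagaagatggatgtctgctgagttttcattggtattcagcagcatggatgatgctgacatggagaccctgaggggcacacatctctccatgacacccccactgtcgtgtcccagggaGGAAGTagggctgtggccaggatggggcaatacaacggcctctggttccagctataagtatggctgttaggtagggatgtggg
Prtn3: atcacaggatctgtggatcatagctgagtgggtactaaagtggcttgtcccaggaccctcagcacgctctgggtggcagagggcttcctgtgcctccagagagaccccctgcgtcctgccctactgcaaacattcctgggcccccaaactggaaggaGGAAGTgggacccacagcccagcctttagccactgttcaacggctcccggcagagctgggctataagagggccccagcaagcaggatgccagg
Ctsg: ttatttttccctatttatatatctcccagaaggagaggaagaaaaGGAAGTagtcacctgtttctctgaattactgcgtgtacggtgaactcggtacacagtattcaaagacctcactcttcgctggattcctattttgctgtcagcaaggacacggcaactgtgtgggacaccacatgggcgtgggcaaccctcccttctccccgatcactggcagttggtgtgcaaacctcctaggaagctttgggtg
GGAAGT was found once in each of the 4 windows, on the strand of the gene, and in 19.7% of 32851 mouse promoter windows of the same length searched on both strands. Its first base stood 222 bases before the start of Mpo, 83 before that of Elane, 93 before that of Prtn3 and 205 before that of Ctsg. The longer word GAGGAAGT, which contains GGAAGT, was present in Mpo, Elane and Prtn3 and in 2.44% of all windows. CAACNG, a core bound by Myb, occurred in Elane, Prtn3 and Ctsg and in 29.3% of all windows, and TATAAG, a form of the TATA box, occurred in Elane and Prtn3, 31 and 32 bases before the start, and in 6.65% of all windows. TGTGGT, a core bound by RUNX factors, was found in Ctsg alone among the 4 and in 14.0% of all windows. TTNCNNAA, one form of the C/EBP core, was in none of the 4 windows and in 36.8% of all. Shorter or other forms of that core were not searched, so its absence does not show that the windows lack C/EBP sites. All of these words except the RUNX and C/EBP cores were chosen after these sequences had been read, and a match describes the letters only.

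Mpo was the leading transcript of Ctrl HSCs. Its counts were 353247, 356426 and 361023 in the 3 Ctrl libraries and 99910, 102016 and 99285 in the 3 l-FA libraries. In CPM, which divides each count by the size of its library after TMM scaling (trimmed mean of M-values), this was 18408, 19103 and 18121 in Ctrl and 4758, 5086 and 4971 CPM in l-FA. Every l-FA library lay far below every Ctrl library, the lowest Ctrl value being 3.56 times the highest l-FA value. On average Ctrl stood at 18544 ± 505 CPM and l-FA at 4938 ± 167 CPM (SD, n = 3), and the fitted log2 fold change of l-FA against Ctrl was -1.91 (standard error, SE, 0.030), which leaves 26.6% of the Ctrl level. By count, Mpo ranked first of all genes in each Ctrl library, and in l-FA it ranked second in library 1, behind the ubiquitin gene Ubb with 104516 counts, and first in libraries 2 and 3.

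Elane differed most between the groups. Its counts were 60997, 60057 and 64436 in Ctrl and 9671, 9056 and 9018 in l-FA. The TMM-normalized values were 3179, 3219 and 3234 CPM in Ctrl and 461, 452 and 452 CPM in l-FA. The libraries of a group were almost level with each other, and the groups were separated by a gap of 6.90 times between the lowest Ctrl and the highest l-FA library. Mean CPM went from 3211 ± 28.7 to 455 ± 5.21 (SD, n = 3). The log2 fold change was -2.82 (SE 0.017), so that l-FA HSCs held 14.2% of the Ctrl level.

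Prtn3, the neighbor of Elane on chromosome 10, had 13481, 13197 and 14645 counts in Ctrl and 4794, 4538 and 4588 in l-FA. In CPM these were 703, 707 and 735 in Ctrl and 228, 226 and 229.7 in l-FA. The l-FA libraries again lay together and below all Ctrl libraries. The mean went from 715 ± 17.6 to 228 ± 1.74 CPM (SD, n = 3), with a log2 fold change of -1.65 (SE 0.024), or 31.9% of the Ctrl level. Ctsg, which stands apart from the other genes on chromosome 14 in a cluster of mast cell and lymphocyte proteases, had 11894, 11452 and 12224 counts in Ctrl and 4109, 3903 and 3718 in l-FA. Its CPM values of 619.8, 614 and 614 in Ctrl and 196, 195 and 186 in l-FA did not overlap either. The mean went from 616 ± 3.55 to 192 ± 5.21 CPM (SD, n = 3), and the log2 fold change of -1.68 (SE 0.026) leaves 31.2% of the Ctrl level.

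All 4 genes thus had every l-FA library below every Ctrl library and a fold change above 2, which is the limit on size in the study's methods. Of all 16520 genes tested, 29.9% had every l-FA library below every Ctrl library, and 30.4% had every l-FA library above every Ctrl library. Called by edgeR's quasi-likelihood test, at an adjusted p below 0.05 with more than a 2-fold difference, were 5.10% as lower and 6.68% as higher. Counts of listed genes called further on are to be read against these shares. Without the limit on the fold, 4131 of the 16520 genes were lower and 4205, or 25.5%, were higher, against which counts without that limit are to be read. Because the 4 genes had been selected on this contrast, their count is not read against these shares. The median log2 fold change was -1.79 over the 4 genes and 0.0035 over all genes tested. In sorted bulk samples such as these, fewer cells of a type that carries the RNA and less of the RNA per cell cannot be told apart.

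**Figure D1:**
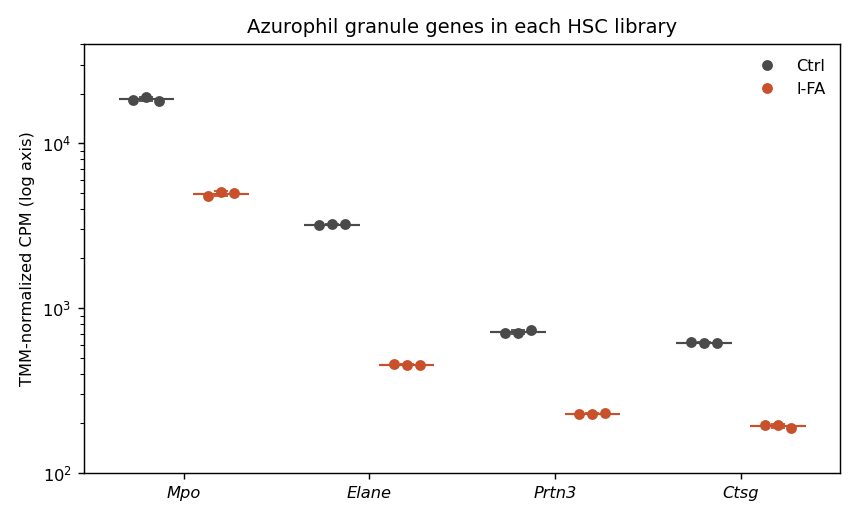
TMM-normalized CPM (log axis) of Mpo, Elane, Prtn3 and Ctsg in each library, with a point per library, a horizontal line at the mean of 3 and bars for the SD. In each gene the 3 l-FA points sit below the 3 Ctrl points, from 18544 to 4938 CPM on average for Mpo and from 3211 to 455 for Elane.

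Set against the whole transcriptome per gene length, in FPKM (CPM divided by gene length in kilobases, without TMM), the 4 genes moved down the ranking by different distances. Mpo went from the first rank (3743 ± 83.8 FPKM, SD, n = 3) to rank 13 (1052 ± 32.0) and Elane from rank 2 (3171 ± 38.6) to rank 43 (474 ± 7.19). Ctsg went from rank 47 (424 ± 2.98) to rank 273 (139.7 ± 4.12) and Prtn3 from rank 139 (235 ± 6.91) to rank 587 (79.1 ± 0.689). In both groups the order by FPKM was therefore Mpo, Elane, Ctsg and Prtn3, and each step in this order was larger than the SDs of the genes it separates. Among the 100 genes of highest mean FPKM in Ctrl, 4 were lower in l-FA by a fold above 2, namely Elane, Gm11505, Mpo and Ctsg, in this order of size, and Gm11505 is the gene that lies within Mpo. In l-FA the first rank by FPKM passed to Gm10123 in all 3 libraries, with 2642 to 2740 FPKM. The ranking takes in every listed gene, also entries named as pseudogenes, such as Ubb-ps at rank 2 in l-FA, above Ubb at rank 3. Whether reads were shared between such entries and their parent genes was not tested.

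**Figure D2:**
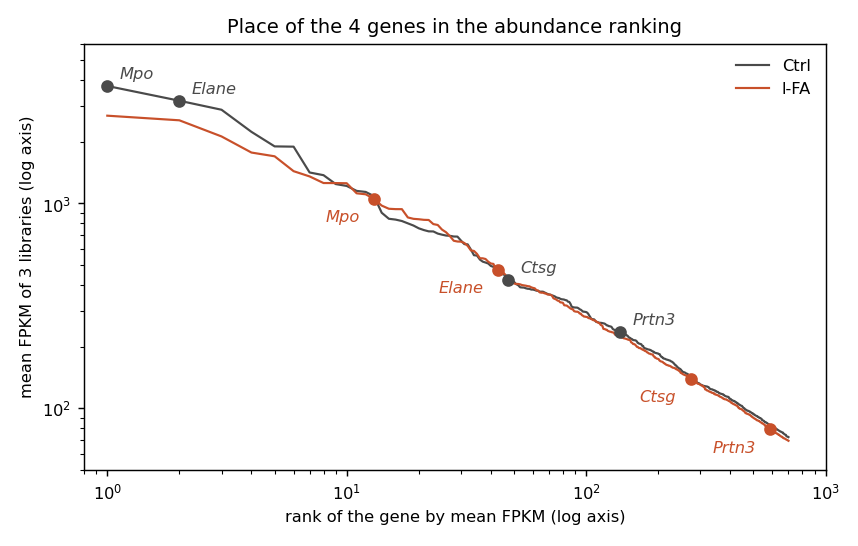
Mean FPKM of 3 libraries (log axis) against the rank of the gene by mean FPKM (log axis) for the most abundant genes of Ctrl (grey line) and l-FA (red line), with the 4 granule genes marked on each line. Mpo and Elane head the Ctrl line at ranks 1 and 2 and stand at ranks 13 and 43 on the l-FA line.

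The order of the lower pair depended on the gene length that FPKM assumes. The deposited FPKM values correspond to a length of 4.815 kb for Mpo, 0.984 kb for Elane, 2.96 kb for Prtn3 and 1.412 kb for Ctsg. The RefSeq transcripts measure 2.75, 0.984, 1.025 and 1.002 kb. Per kilobase of these transcripts, and like FPKM without TMM, Mpo stood at 6554 ± 147 CPM in Ctrl and 1843 ± 56.0 CPM in l-FA (SD, n = 3). Elane kept its value. Prtn3 then stood above Ctsg, at 678 ± 19.96 against 597 ± 4.21 in Ctrl and 228 ± 1.99 against 197 ± 5.80 in l-FA. Which length fits the RNA in these libraries was not tested, and differences between groups within a gene do not depend on it.

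Together the 4 genes took up 2.22%, 2.29% and 2.22% of all counts in the Ctrl libraries and 0.581%, 0.610% and 0.598% in the l-FA libraries. The mean share went from 2.24% ± 0.0377 to 0.597% ± 0.0144 (SD, n = 3). The make-up of this pool changed as well. Mpo supplied 49.4% ± 0.739 of the summed FPKM of the 4 in Ctrl and 60.3% ± 1.05 in l-FA, while the part of Elane went from 41.9% ± 0.585 to 27.2% ± 0.749. The share of Ctsg went from 5.60% ± 0.0944 to 8.003% ± 0.2702 and that of Prtn3 from 3.10% ± 0.0991 to 4.53% ± 0.1004 (SD, n = 3). With RefSeq transcript lengths the shares in Ctrl and l-FA were 59.6% ± 0.748 and 67.2% ± 0.940 for Mpo, 28.8% ± 0.472 and 17.3% ± 0.537 for Elane, 6.16% ± 0.212 and 8.33% ± 0.207 for Prtn3 and 5.43% ± 0.1005 and 7.18% ± 0.265 for Ctsg (SD, n = 3). The share of Prtn3 then stood above that of Ctsg in both groups, while each gene kept the direction of its difference between the groups. By counts, which favor long transcripts, Mpo made up 79.8% to 80.8% of the 4 in Ctrl libraries and 84.3% to 85.4% in l-FA libraries. With either length, no library of one group had a share within the range of the other group for any of the 4 genes.

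Ratios within a library, which no scaling between libraries can alter, show the same unequal change. The Elane to Mpo ratio of FPKM was 0.845, 0.825 and 0.873 in the Ctrl libraries and 0.474, 0.434 and 0.444 in the l-FA libraries. Relative to Mpo, Elane was 1.88 times lower in l-FA, a log2 difference of -0.91. The Prtn3 to Mpo ratio was 0.0621, 0.0602 and 0.0660 in Ctrl and 0.0781, 0.0724 and 0.0752 in l-FA, a log2 difference of 0.26. For Ctsg to Mpo the values were 0.115, 0.110 and 0.115 in Ctrl and 0.140, 0.130 and 0.128 in l-FA, a log2 difference of 0.23. In these 3 ratios the groups did not overlap, with Elane lower by more than Mpo and the other proteases lower by less. Elane to Prtn3 went from 13.5 ± 0.243 to 5.99 ± 0.0782 and Elane to Ctsg from 7.48 ± 0.109 to 3.396 ± 0.0772 (SD, n = 3), again without overlap. With RefSeq transcript lengths Elane to Prtn3 was 4.68 in Ctrl and 2.08 in l-FA, Elane to Ctsg 5.31 and 2.41, Elane to Mpo 0.484 and 0.257 and Prtn3 to Mpo 0.104 and 0.124, each with the same fold between the groups. Ctsg to Prtn3 alone overlapped between the groups, at 1.85, 1.82 and 1.75 in Ctrl and 1.80, 1.80 and 1.70 in l-FA. The means of 1.81 ± 0.0511 and 1.77 ± 0.0584 (SD, n = 3) lay within a log2 difference of -0.03. Prtn3 and Elane, which are adjacent, therefore differed from each other in fold change by more than Prtn3 and Ctsg did, which lie on different chromosomes. These ratios come from the contrast on which the genes were chosen and carry no test.

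**Figure D3:**
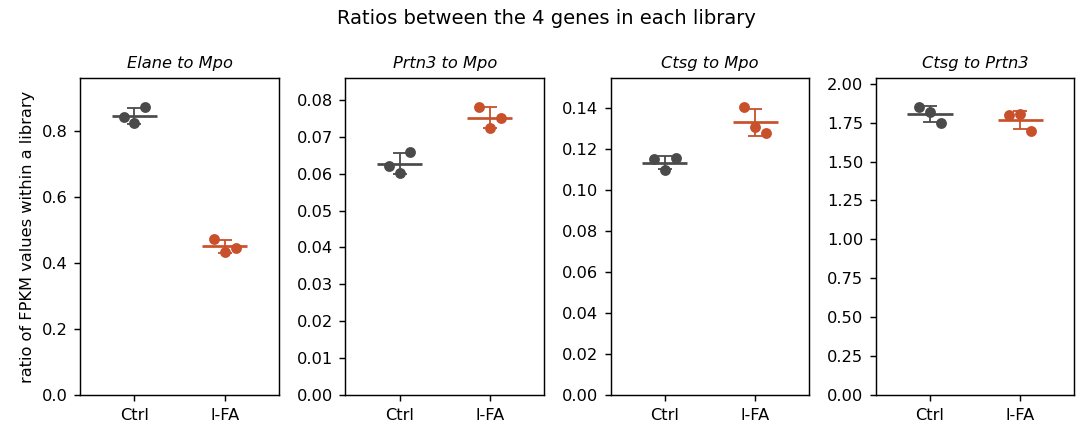
Ratios of FPKM between pairs of the genes in each library, in Ctrl and l-FA, with the vertical axis from 0, a point per library, a line at the mean of 3 and bars for the SD. The Elane to Mpo ratio is 0.848 in Ctrl and 0.451 in l-FA on average, Prtn3 to Mpo and Ctsg to Mpo are higher in l-FA without overlap, and the Ctsg to Prtn3 points overlap.

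Libraries of the same group held these transcripts at nearly equal levels. The coefficient of variation of CPM was 2.72% for Mpo, 0.894% for Elane, 2.46% for Prtn3 and 0.576% for Ctsg among Ctrl libraries. It was 3.38%, 1.15%, 0.762% and 2.71% in the same order among l-FA libraries. For comparison, the median over 5062 genes with a mean of at least 1000 counts was 3.07% in Ctrl, and that over 5212 such genes was 2.93% in l-FA. The spread of Mpo was thus below that median in Ctrl and above it in l-FA, and counting error alone would give 0.167% and 0.316%. In Ctrl, library 2 was the highest for Mpo, library 3 for Elane and Prtn3 and library 1 for Ctsg. In l-FA the highest was library 2 for Mpo, library 1 for Elane and Ctsg and library 3 for Prtn3. No library was thus highest or lowest for all 4 genes of its group, and none stood apart over all genes. The median chi-square between a pair of libraries was 0.890 to 1.12 within groups and 7.85 to 8.62 between groups, where counting alone gives 0.455.

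The serine proteases resemble each other in sequence, so reads could in principle be shared. In coding sequence Elane and Prtn3 were 65.8% identical over 740 aligned positions, Elane and Ctsg 62.6% and Prtn3 and Ctsg 62.0%. The longest run of bases that their transcripts share was 17 for Elane and Prtn3, 9 for Elane and Ctsg and 12 for Prtn3 and Ctsg. Each of the 3 has 5 exons, and Mpo, with a coding length of 2157 bases, has 14.

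The other genes of the granule program were examined with lists, of which the first holds the remaining cargo of azurophil granules and the proteins that process, pack or release it. Of its 25 genes, 23 could be tested, and Prss57 was the one called, in the lower direction. Prss57 encodes a serine protease of the same granules and lies within 100 kb of Elane. Its counts of 2996, 2678 and 3137 in Ctrl and 1293, 1368 and 1296 in l-FA did not overlap, with a log2 fold change of -1.23 (SE 0.055, edgeR adjusted p = 1.9e-05). With an adjusted p under 0.05 and no limit on the fold, 9 genes of the list were lower and 7 higher, and its median log2 fold change was -0.01. Ctsc, the cathepsin C that activates the proteases, had a log2 fold change of -0.24 (edgeR adjusted p = 0.00055) and was named after its value was seen. Lyz2, the lysozyme of granules and macrophages, was higher by a log2 fold change of 0.30 (edgeR adjusted p = 0.0001), and the lysosomal hexosaminidase subunit gene Hexa was lower at -0.60 (edgeR adjusted p = 1.9e-05). Ctsd, cathepsin D, stood at 0.04 (edgeR adjusted p = 0.23). Srgn, the proteoglycan core on which granule proteases are packed, had 3812, 3695 and 12158 counts in Ctrl and 3519, 10226 and 9960 in l-FA. Its libraries were spread widely in both groups, and at a log2 fold change of 0.22 (SE 0.58) it gave an edgeR adjusted p of 0.78.

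Of 15 listed inhibitors of the granule proteases or of cathepsin C, 6 could be tested, 2 were called lower and none higher. Slpi, the secretory leukocyte protease inhibitor, had a log2 fold change of -1.29 (SE 0.12, edgeR adjusted p = 0.00026), with 482, 466 and 545 counts in Ctrl and 262, 189 and 195 in l-FA. Cst7, cystatin F, which restrains cathepsin C, had a log2 fold change of -1.06 (SE 0.037, edgeR adjusted p = 8.5e-06). Serpinb1a, the cytosolic inhibitor of elastase, proteinase 3 and cathepsin G and the inhibitor of highest FPKM, changed less, from 231 ± 3.78 to 206 ± 13.3 FPKM (SD, n = 3) with a log2 fold change of -0.25 (edgeR adjusted p = 0.0052). Serpina3g was higher by a log2 fold change of 0.23 (edgeR adjusted p = 0.00065) and Serpinb6a by 0.76 (edgeR adjusted p = 0.00037), and Cst3, cystatin C, stood at -0.03 (edgeR adjusted p = 0.69). The median of the list was -0.14. Serpinb1b, untested and named after its values were seen, had 0 counts in every Ctrl library and 52, 0 and 49 in l-FA. Without l-FA library 2, 3 inhibitors were called, 2 lower and 1 higher.

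Among 16 transcription factors known to act on primary granule genes, all tested, 3 were called lower and 1 higher. Gfi1, a repressor needed for neutrophil development, had 470, 457 and 393 counts in Ctrl and 131, 110 and 117 in l-FA, a log2 fold change of -1.96 (SE 0.11, edgeR adjusted p = 4.6e-05). Cebpe, the C/EBP factor of promyelocytes and later stages, had 365, 342 and 344 counts in Ctrl and 115, 109 and 97 in l-FA, a log2 fold change of -1.79 (SE 0.086, edgeR adjusted p = 2.5e-05). Cebpa, the C/EBP factor of granulocyte-monocyte commitment, went from 202, 201 and 203 counts to 113, 69 and 66, a log2 fold change of -1.37 (SE 0.19, edgeR adjusted p = 0.0013). In these 3 genes no l-FA library reached a Ctrl library. Klf4, a factor of monocytic cells, was higher by a log2 fold change of 1.53 (SE 0.24, edgeR adjusted p = 0.0021), from 32, 20 and 17 counts to 74, 70 and 67. Smaller differences were found in Spi1, which encodes PU.1, at a log2 fold change of -0.38 (edgeR adjusted p = 0.002), and in Myb at -0.36 (edgeR adjusted p = 5e-05). Cbfb, the partner of RUNX factors, stood at -0.09 (edgeR adjusted p = 0.065) and Irf8, a factor of monocyte and dendritic cell fate, at 0.41 (edgeR adjusted p = 0.21). With no limit on the fold, 6 of the 16 were lower and 4 higher, where 4131 and 4205 of all 16520 genes were, and the median was -0.05.

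The contents of specific and gelatinase granules and the abundant cytosolic proteins of later neutrophils made up the list with the largest share of genes called. Of its 17 genes, 15 could be tested, 12 were called lower and none higher, and the median log2 fold change was -1.30. The shares called over all genes tested were 5.10% lower and 6.68% higher. Ltf, lactoferrin, had 236, 256 and 263 counts in Ctrl and 22, 37 and 30 in l-FA, a log2 fold change of -3.16 (SE 0.19, edgeR adjusted p = 5e-05). Hp, haptoglobin, the list's most abundant gene in Ctrl, went from 2648, 2224 and 2280 counts to 660, 612 and 552, a log2 fold change of -2.05 (SE 0.087, edgeR adjusted p = 1.6e-05). The other genes called were Camp, Ngp, Lcn2, Mmp8, Cd177, Fcnb, Chil3, Ltb4r1, S100a8 and S100a9, with log2 fold changes from -1.75 (Chil3) to -1.02 (S100a9). Camp, with 10, 12 and 4 counts in l-FA, and Cd177, with 20, 24 and 7, passed the filter on low counts through Ctrl alone. Such genes can only be called lower, so their calls are not read as a direction. When at least 10 counts were required in every library, 10 genes of the list were called, all lower. Padi4, which citrullinates histones in neutrophils, was higher by 0.18 (edgeR adjusted p = 0.0038). These later transcripts were far scarcer than those of the azurophil genes. The summed FPKM of the list was 129 to 142 in the Ctrl libraries and 62.7 to 66.1 in the l-FA libraries, whereas Mpo alone stood at 3743 FPKM in Ctrl.

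The sequence relatives with many counts in both groups, Epx, Mcpt8 and Prss34, were higher in l-FA. Of 17 listed peroxidases and trypsin-like serine proteases, 5 could be tested. None was called lower, and the 2 called higher, Gzmb and Tpsb2, passed the filter through their l-FA libraries alone. The median log2 fold change of 0.84 over the 5 includes these 2 genes. Other settings that test scarcer relatives called 1 lower. Epx, the eosinophil peroxidase and the one listed peroxidase that could be tested, had 955, 881 and 906 counts in Ctrl and 1714, 1689 and 1791 in l-FA. This was a log2 fold change of 0.84 (SE 0.053, edgeR adjusted p = 6.4e-05), under the limit of a fold above 2. The mast cell and basophil proteases Mcpt8 and Prss34 were higher by 0.38 (edgeR adjusted p = 0.0012) and 0.55 (edgeR adjusted p = 5.9e-05), and Mcpt8 is a neighbor of Ctsg. Gzmb, granzyme B, had 4, 3 and 4 counts in Ctrl and 21, 22 and 26 in l-FA. Tpsb2, a mast cell tryptase, had 0 counts in every Ctrl library and 48, 49 and 58 in l-FA, at least 16.3-fold higher than a floor of 3 counts per library. A gene that passes the filter as Gzmb and Tpsb2 did can only be called higher. Their calls are therefore not read as a direction of the relatives. Gzma had 0, 3 and 2 counts in Ctrl and 12, 16 and 6 in l-FA and was too scarce to be tested. Lpo, the lactoperoxidase gene beside Mpo, was untested as well and is named after its values were seen, with 7, 13 and 9 counts in Ctrl and 4, 4 and 0 in l-FA. The same holds for Gzmm, with 13, 10 and 6 counts in Ctrl and 2, 3 and 0 in l-FA. The number called rested on scarce genes: it was 5 without a filter on low counts, 0 when 10 counts were required in each library, 4 without any one of the Ctrl libraries and 5 without l-FA library 3. A relative was called lower, 1 in each case, without the filter and without Ctrl library 3, l-FA library 2 or l-FA library 3.

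**Figure D4:**
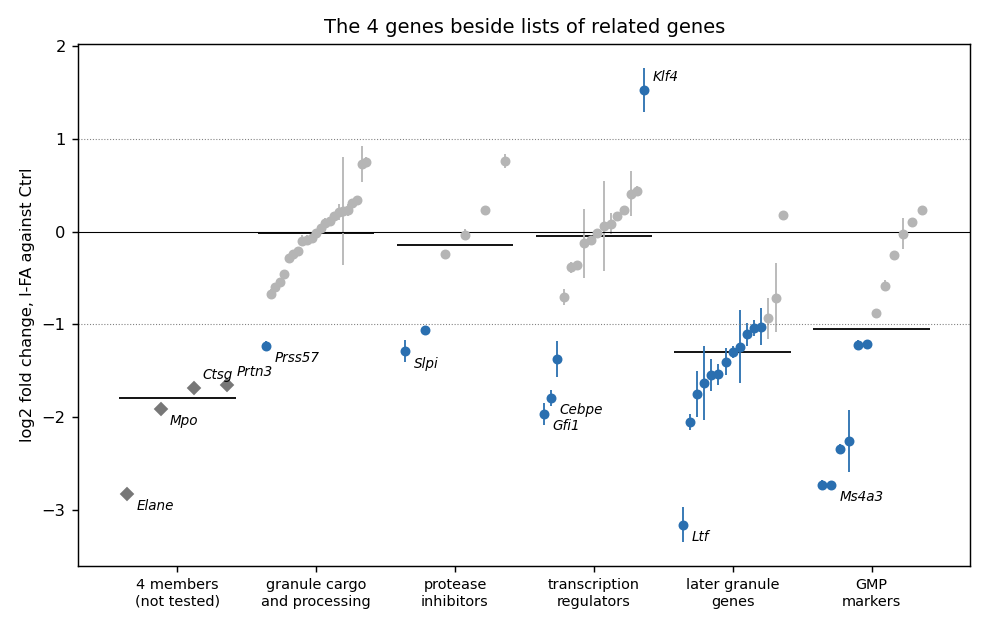
Log2 fold change of l-FA against Ctrl (vertical axis) for the 4 granule genes (diamonds, not tested) and for the tested genes of related lists (circles, blue where called with an edgeR adjusted p under 0.05 and a fold above 2), with bars for the standard error, black lines at list medians and dotted lines at a fold of 2. The 4 genes lie between -2.82 and -1.65, the later granule genes have a median of -1.30, and the cargo and processing genes lie around -0.01.

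Several markers of the cells in which the granule genes are normally expressed were lower as well. Of 12 markers of granulocyte-monocyte progenitors (GMPs) and promyelocytes, all tested, 6 were called lower and none higher, with a median log2 fold change of -1.04. Of all genes tested, 5.10% were called lower and 6.68% higher, against which the marker counts given here are to be read. Ms4a3, a marker of these progenitors, went from 7121, 7196 and 7882 counts to 1249, 1116 and 1182, a log2 fold change of -2.72 (SE 0.040, edgeR adjusted p = 6.1e-07). The others called were Igsf6 (-2.73), Fcgr3 (-2.34), Ly6c2 (-2.26), Tifab (-1.22) and Clec12a (-1.21). Csf3r, the receptor of the granulocyte growth factor G-CSF, stood at -0.25 and Csf1r at 0.10. With no limit on the fold, 9 GMP markers were lower and 2 higher, Csf1r and Cd34, the latter at 0.23 (edgeR adjusted p = 0.00029). The summed FPKM of the GMP list was 760 to 797 in Ctrl libraries and 470 to 485 in l-FA libraries, and none of its genes was at 0 in all libraries. Of 12 markers of mature neutrophils, 9 could be tested, 4 were called lower and 1, Cxcl2, higher. Of the 4, S100a8, S100a9 and Mmp8 are also in the list of later granule genes and had been counted there, and Csf3r is also a GMP marker. Their summed FPKM was 101 to 109 in Ctrl and 86.6 to 89.3 in l-FA, of which Csf3r alone made up 78.3 and 69.4 on average. The defining marker Ly6g had 3, 6 and 8 counts in Ctrl and 0 in every l-FA library. Fpr1, also scarce and untested, went the other way, with 1, 0 and 0 counts in Ctrl and 7, 7 and 9 in l-FA. Itgam was higher by a log2 fold change of 0.50 (edgeR adjusted p = 0.0027). With no limit on the fold, 6 neutrophil markers were lower and 2 higher. Of 8 monocyte markers, 3 were called lower (Ly6c2, Adgre1 and Cx3cr1) and none higher, and their summed FPKM was 72.0 to 91.1 in Ctrl and 53.5 to 56.6 in l-FA. Ly6c2 and Csf1r are also GMP markers and had been counted there, and Ly6c2 varied among Ctrl libraries, with 3071, 1437 and 3215 counts. Adgre1, with 65, 78 and 92 counts in Ctrl and 18, 5 and 6 in l-FA, passed the filter on low counts through Ctrl alone. It could only be called lower, so its call is not read as a direction. With no limit on the fold, 4 monocyte markers were lower and 2 higher, among them Ccr2 at 0.68 (edgeR adjusted p = 0.0048). The part of such cells in the levels of Mpo, Elane, Prtn3 and Ctsg was not tested.

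The sorted phenotype was checked against its own markers. Of 15 HSC markers, all detected and tested, Slamf1 was the one called, higher by a log2 fold change of 1.90 (SE 0.19, edgeR adjusted p = 0.00034) on 40, 51 and 32 counts in Ctrl and 179, 152 and 156 in l-FA. With no limit on the fold, 9 of them were higher and 1, Hlf, was lower, where 4205 and 4131 of all 16520 genes were. Among genes of surface proteins that the sort excluded, Cd3e and Ly6g held at most 10 counts in any library, whereas the RNA of the excluded proteins CD34 and CD135 was abundant. Cd34 stood at 133 ± 1.13 FPKM in Ctrl and 165 ± 3.47 in l-FA, and Flt3, the gene of CD135, at 119 ± 0.144 and 197 ± 2.57 (SD, n = 3). Itgam, the gene of CD11b, had 771 to 967 counts in Ctrl and 1209 to 1395 in l-FA. Surface protein was not analysed here.

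Genes within 100 kb of the 4 loci were listed after the values of the 4 genes were known, and 5.10% of all genes tested were called lower. Near Mpo, 8 of 12 neighbors could be tested and 3 were called lower, namely Rnf43 (log2 fold change -2.31, edgeR adjusted p = 0.00046), Tspoap1 (-2.06, edgeR adjusted p = 8.6e-05) and the overlapping Gm11505 (-2.02, edgeR adjusted p = 1.3e-06). The median of these 8 was -0.09, Mks1 stood at -0.01 and Epx was higher. Around Elane and Prtn3, 15 of 17 neighbors could be tested and 3 were called lower. These were Prss57, Gm48495 (-1.41, edgeR adjusted p = 0.0032) and Kiss1r (-1.74, edgeR adjusted p = 0.0018), and the median was -0.18. Kiss1r had 36, 31 and 45 counts in Ctrl and 8, 13 and 14 in l-FA. It passed the filter on low counts through Ctrl alone and could only be called lower, so its call is not read as a direction. Plppr3, which overlaps Prtn3, had 8877, 9182 and 9406 counts in Ctrl and 8763, 8457 and 8440 in l-FA, a log2 fold change of -0.18. Near Ctsg, 2 of 4 neighbors could be tested, Mcpt8 at 0.38 and Gm5801 at -0.69, and neither was called.

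**Figure D5:**
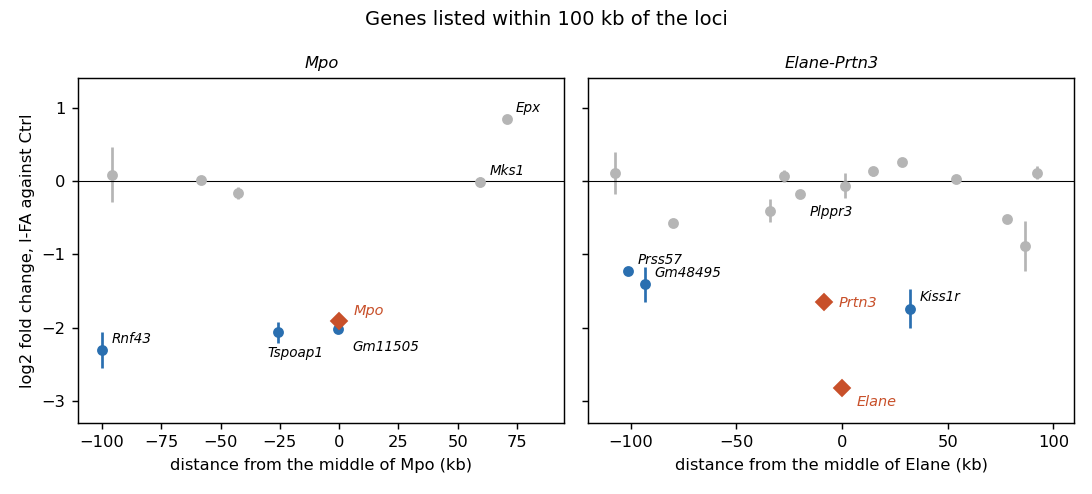
Log2 fold change of l-FA against Ctrl (vertical axis) of tested genes within 100 kb of Mpo (left) and of Elane and Prtn3 (right), by distance from the middle of Mpo or Elane in kb, with bars for the standard error. Red diamonds are the granule genes, blue circles are neighbors called with an edgeR adjusted p under 0.05 and a fold above 2, grey circles are the other neighbors, and Elane at -2.82 stands among neighbors whose median is -0.18.

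The genes whose pattern came nearest to the mean of the 4 were sought among the 11417 genes whose normalized counts averaged 100 or more. Likeness was the root-mean-square difference in log2 CPM over the 6 libraries, each gene being centered on its own mean. As libraries of a group differed little, the measure ranks genes mainly by how near their difference between groups came to that of the mean of the 4. The nearest was Gm11505, at 0.0454, which lies within Mpo. It was followed by Srsf2, a splicing factor gene, at 0.0679, Ctdp1, which encodes a phosphatase of RNA polymerase II, at 0.0736, and Ighg2c, an immunoglobulin heavy chain constant gene, at 0.0796. Next came the kinase gene Rps6ka2 at 0.0805, the thyroid hormone deiodinase gene Dio2 at 0.0841 and the translation factor gene Eif1a at 0.0857. Hp at 0.103, the annexin gene Anxa3 at 0.104 and Alas1, the first enzyme of heme synthesis, at 0.106 completed the nearest 10. Their log2 fold changes ranged from -2.07 (Ctdp1) to -1.81 (Alas1). By the same measure Mpo itself lay at 0.0625 from the mean of the 4, Ctsg at 0.168, Prtn3 at 0.185 and Elane at 0.403, so Elane was the gene of the 4 that departed most from their common pattern.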

How the data were processed

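Per the labels, HSC RNA was reverse-transcribed and amplified from poly(A) tails (SMART-Seq HT) and sequenced without molecular identifiers or strand marking. For 6 libraries the authors deposited raw counts of each gene, not normalized, and FPKM values that divide these counts by gene length and library total. The submitters' processing notes name HISAT2, SAMtools 1.3.1, StringTie, edgeR and GRCm39, without roles.

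Groups and replicate numbers follow the labels. As no source used here says that libraries are separate mice, p-values measure only the spread between these libraries. The quasi-likelihood test of edgeR 4.0.16 (R 4.3.3), after TMM scaling and filterByExpr, was applied to 16520 of 27198 genes, with Benjamini-Hochberg adjustment, and a gene was called at an adjusted p under 0.05 and a fold above 2. A standard error is the log2 fold change divided by the square root of F. On simulated counts for 16520 genes in this comparison the code recovered 93% of 2-fold and 100% of 4-fold changed genes among 200 with a mean of at least 100 counts. DESeq2 1.42.0, limma 3.58.1 on FPKM, other scalings and filters, a replicate block and each library left out were alternatives. Libraries held 19287735 to 20380610 counts, and PCR copies without identifiers are not independent molecules.

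The 4 genes and all lists were chosen with earlier results of these data known. Within lists, the genes named are those called and at most 4 others of highest mean FPKM, and in marker and neighbor lists further genes are named after their values were seen. Genes listed but not in the table are not analysed here, and the erythroid marker list is not reported here. Promoters were taken from RefSeq (GRCm38.p6), with all 4 genes matched, and transcripts from GENCODE M21.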

Additional observations from a re-analysis of the deposited data

How the results depend on the processing

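The log2 fold changes of the 4 genes kept their sign under all alternatives. From FPKM, which lacks TMM scaling, they were closer to 0: by group means, by limma on log2(FPKM + 1) and by limma on log2(FPKM + 0.1), Mpo stood at -1.83 in each, Elane at -2.74 in each, Prtn3 at -1.57, -1.56 and -1.57, Ctsg at -1.60 in each and their median at -1.72, -1.71 and -1.72. Upper-quartile scaling gave -2.80 for Elane. Leaving out each library in turn gave -1.93 to -1.87 for Mpo, -2.83 to -2.80 for Elane, -1.66 to -1.63 for Prtn3, -1.69 to -1.65 for Ctsg and -1.81 to -1.77 for the median. With RefSeq transcript lengths, an alternative chosen after seeing the data, the Ctsg to Prtn3 ratio turned to 0.881 in Ctrl and 0.862 in l-FA, Elane to Prtn3 was 4.68 and 2.08, and Prtn3 stood above Ctsg in share.

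The number of genes called, 1946 (DESeq2: 1966), was 3335 without a low-count filter, 930 with at least 10 counts in every library and 8336 without the fold limit. Without the filter 2 cargo genes and 5 relatives (4 higher, 1 lower) were called. No relative was called when at least 10 counts were required, a setting that tests fewer genes. Without the fold limit the counts were 16 for cargo, 5 for inhibitors, 10 for regulators and 5 for relatives. Leaving out each library gave 2 to 5 relatives, with 4 without Ctrl library 1, 2 or 3 and 5 without l-FA library 3, of which 1 was lower without Ctrl library 3, l-FA library 2 or l-FA library 3, where the cause was not tested, and 9 to 12 later granule genes.

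Same-numbered libraries did not deviate together (correlations 0.0164, 0.0323 and -0.0453). This shows no shared deviation in expression, but it cannot show whether the numbers pair libraries by design. With the replicate number as a block, 1852 genes were called, 10 of them later granule genes, and Mpo, Elane, Prtn3 and Ctsg stood at -1.91, -2.82, -1.65 and -1.68. With 3 libraries a group and no identifiers for molecules, differences near the spread between libraries cannot be resolved, and scarce genes such as the tryptases rest on few counts.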

Other observations

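Markers of lineages other than the neutrophil and monocyte line were measured in the same libraries. Their counts are to be read against the 5.10% of all genes tested that were called lower and the 6.68% called higher. Of 8 eosinophil markers, 3 were called higher in l-FA by edgeR (Prg2, Ear1 and Ear2, with log2 fold changes of 1.09, 1.36 and 1.27) and 1 lower (Ccr3, -1.70), and their summed FPKM was 112 to 115 in Ctrl and 233 to 242 in l-FA. Prg2, the major basic protein of eosinophil granules, had 1349, 1336 and 1442 counts in Ctrl and 3283, 3040 and 2959 in l-FA. Of 8 mast cell and basophil markers, 7 were tested, with 1 called higher (Gzmb) and 1 lower, the histidine decarboxylase gene Hdc at -2.56, and their summed FPKM was 96.0 to 99.5 in Ctrl and 117 to 122 in l-FA. As stated above, Gzmb passed the filter on low counts through its l-FA libraries alone, so its call is not read as a direction.

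Of 6 megakaryocyte markers, 1 was called higher (Gp9, 1.41) and none lower, with a summed FPKM of 34.9 to 37.7 in Ctrl and 56.3 to 62.1 in l-FA. Of 8 B cell markers, 4 were tested and none was called by edgeR, although 1 of them, Cd79b, was higher at 0.22 with an adjusted p of 0.0025. Of 8 T and NK cell markers, 3 were tested and 1, Klrb1c, was called lower, at -1.54. Their summed FPKM was 330 to 347 in Ctrl and 197 to 205 in l-FA. Most of this was Nkg7, at 338 FPKM in Ctrl and 197 in l-FA on average, a log2 fold change of -0.86. The part of these cells in the levels of the azurophil granule genes was not tested.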
